A study of Mus musculus with 9 samples.

Results

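The granulocyte columns described here were those poor in secondary granule transcripts: the deposited class granulocytes-mac1-gr1 held 1905 columns of a blood Seq-Well table, and 858 of them (45.0%) had a share of Ngp, Camp and Ltf under 2% of their signal outside hemoglobin. They made up 19.9% of all 4310 columns. The proposed name for them was mature-like neutrophils, and the markers given with it were Csf3r, Cxcr2, Il1r2, Mmp8 and S100a8. The data went against that name for most of the columns, so they are called granule-poor columns and the remaining 1047 are called granule-rich columns. Both short names refer to the share of Ngp, Camp and Ltf only, and not to granule transcripts in general. Ngp, Camp and Ltf chose the members, and every difference between the 2 kinds of column is therefore a description with no test.

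The study compared blood cells of healthy and arthritic mice by Seq-Well, a nanowell method that tags the RNA of single cells with barcodes and reads it from the polyA tail. All 9 mice were 129SvE females, and the labels name the tissue both as PBMC and as blood. The 4 healthy mice had disease stage 0. The 5 arthritic mice, labelled sick with rheumatoid arthritis in brackets, had stage 1.5 (mice 1 and 4), 2 (mouse 3), 1.5 to 2 (mouse 5) and 2 to 2.5 (mouse 6). How the arthritis was induced is not given in the sources used here, and neither allele nor treatment is named for any mouse. That each mouse is a separate animal is read from its numbered title.

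Neutrophils are the short-lived granulocytes that patrol blood and are recruited into inflamed joints. Their precursors fill granules in sequence: the serine proteases and myeloperoxidase of the primary granules first, then the antimicrobial proteins of the secondary granules, then gelatinase. Transcripts of the secondary granule proteins are known to fade as the cell leaves the myelocyte and metamyelocyte stages, while receptors such as Cxcr2 and Csf3r remain in the mature cell. Monocytes share much of the myeloid programme with neutrophils, including the surface antigens detected by Mac1 and Gr1 antibodies, but carry Ccr2, Csf1r and Cx3cr1.

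Promoters of the 3 transcripts that define the columns are shown together with that of Retnlg, a resistin-like transcript of neutrophils that was not part of the rule and varied widely among the columns. Ngp encodes neutrophilic granule protein, Camp the cathelicidin antimicrobial peptide and Ltf the iron-binding lactoferrin. All 4 genes were found in the RefSeq promoter table (build GRCm38.p6), which gives the bases before each RefSeq start. Only bases that also lie before the GENCODE M21 start are printed, 5′ to 3′ on the gene's strand: Ngp at chr9:110419558-110419746 (plus strand), Camp at chr9:109849618-109849706 (minus strand), Ltf at chr9:111019042-111019270 (plus strand) and Retnlg at chr16:48872358-48872607 (plus strand). Capitals mark matches to TTGCNNAA on either strand, a form of the sites bound by C/EBP factors, which drive granulocyte genes.
Ngp: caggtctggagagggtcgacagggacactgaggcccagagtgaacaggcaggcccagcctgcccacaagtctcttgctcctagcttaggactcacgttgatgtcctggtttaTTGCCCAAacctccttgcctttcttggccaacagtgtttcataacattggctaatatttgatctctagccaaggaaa
Camp: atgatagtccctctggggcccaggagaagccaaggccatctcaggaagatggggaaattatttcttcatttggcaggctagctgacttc
Ltf: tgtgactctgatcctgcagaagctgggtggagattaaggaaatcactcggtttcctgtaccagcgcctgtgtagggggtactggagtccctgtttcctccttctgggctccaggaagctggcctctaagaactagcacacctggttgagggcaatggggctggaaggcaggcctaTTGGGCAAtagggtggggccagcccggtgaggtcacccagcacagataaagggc
Retnlg: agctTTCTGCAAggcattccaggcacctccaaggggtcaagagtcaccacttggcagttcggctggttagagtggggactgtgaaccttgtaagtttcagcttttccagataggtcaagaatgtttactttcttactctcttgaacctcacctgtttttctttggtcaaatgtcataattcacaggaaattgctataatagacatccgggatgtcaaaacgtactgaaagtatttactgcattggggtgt
Within 250 bases before the RefSeq start, Ngp held 2 such matches, at 138 and 11 bases before it, of which the first lies in the printed stretch. Ltf held 1 at 75 bases and Retnlg 1 at 246 bases, and Camp held none of these letters in its window. The motif occurred in 9.56% of 32851 promoter windows of that length, so a match is common by itself. The letters GGAAGT, a core of PU.1 and ets sites, were found in 0 of the 4 windows and in 19.7% of all. Other forms of the C/EBP motif were also looked at before this one was shown. On GENCODE M21 the genes themselves lie on chromosome 9 from 110419747 to 110423012 (Ngp), 109847379 to 109849617 (Camp) and 111019271 to 111042767 (Ltf), and on chromosome 16 from 48872621 to 48874496 (Retnlg).

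The members were spread unevenly over the mice. Healthy mice 1 to 4 gave 13, 2, 11 and 20 granule-poor columns, 46 in all, and arthritic mice 1, 3, 4, 5 and 6 gave 117, 78, 221, 176 and 220, 812 in all. A column held 6419 to 48796 signal and 1782 to 8048 genes. Of the 858 columns 249 had the same values as another column throughout. Of these, 126, 13 of them from healthy mice, matched a column of another mouse, so the mice share part of their values. The tests between the groups take the mice as independent, and their p-values do not allow for this sharing. No member barcode occurred in more than 1 mouse. The signal summed over the members was 25183 to 301431 in healthy mice and 926329 to 3040474 in arthritic mice, a gap in depth that every comparison of the groups carries.

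Granule-poor columns were 100%, 40%, 100% and 100% of the granulocyte columns of healthy mice 1 to 4, where healthy mouse 2 had only 5 such columns. In arthritic mice 1, 3, 4, 5 and 6 they were 23.9%, 24.1%, 61.4%, 40.5% and 88.4%. Inside the boundary the highest share was 1.995% and outside it the lowest was 2.003%, with 32 columns from 1.8% to 2.0% and 25 from 2.0% to 2.2%. The median share was 0.114% in members and 6.84% in granule-rich columns, and 392 members lay under 0.1%.

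**Figure D1:**
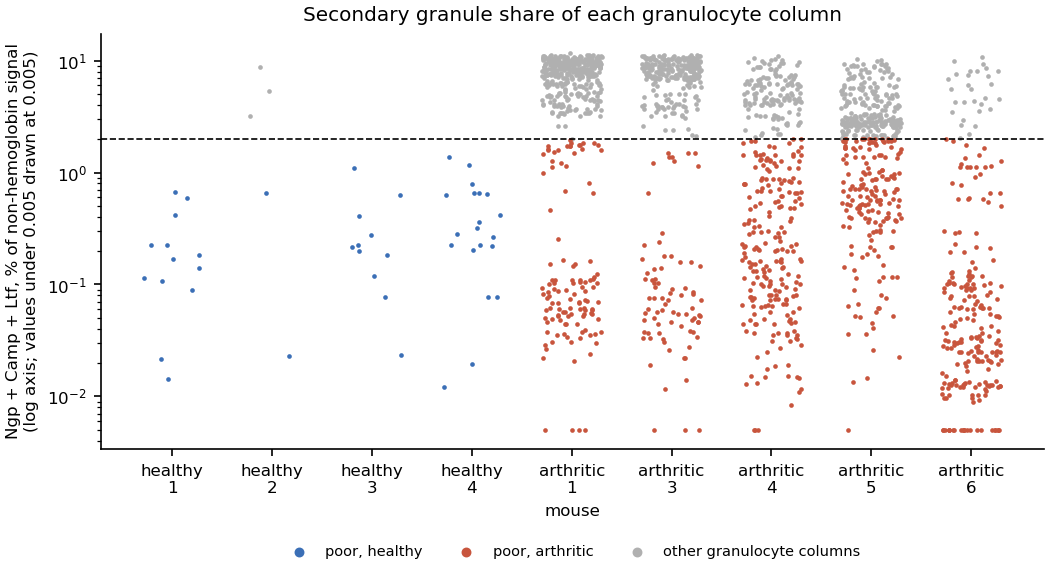
Share of Ngp, Camp and Ltf in each granulocyte column's non-hemoglobin signal (percent, log axis) by mouse, with the 2% boundary dashed, granule-poor columns in blue (healthy) or red (arthritic) and granule-rich columns in grey. Healthy mice 1, 3 and 4 have no column above the boundary, and the arthritic mice have 29 to 372.

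The 5 markers given with the rule were present in the granule-poor columns but did not set them apart as mature neutrophils. Levels between kinds of column are signal per 1000000 non-hemoglobin signal, summed over the columns of a mouse, and the 5 arthritic mice are used because the healthy mice gave 3 granule-rich columns in all. S100a8, a subunit of the calprotectin alarmin that fills neutrophil cytosol, stood at 28013 ± 10339 in granule-poor and 185525 ± 41513 in granule-rich columns (SD, n = 5 mice). It was lower in the granule-poor columns of 5 of 5 mice. Even so it lay above the deposited classes of dendritic cells (3568) and B cells (2982).

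Cxcr2, the chemokine receptor that draws neutrophils out of the marrow, was 317 ± 87.8 in granule-poor and 454 ± 116 in granule-rich columns, against 56.6 in the dendritic class and 36.8 in the B class. By mouse (arthritic 1, 3, 4, 5 and 6) its level in granule-poor columns was 298, 197, 433, 296 and 364, each lower than in the granule-rich columns of the same mouse. Mmp8, the neutrophil collagenase of the secondary granules, was 345 ± 95.3 and 1095 ± 537, also lower in 5 of 5 mice. Il1r2, a decoy receptor for IL-1, was 79.2 ± 24.3 and 150 ± 62.9 and lower in 4 of 5. Csf3r, the receptor for the granulocyte growth factor G-CSF, was 96.4 ± 36.6 and 71.6 ± 18.8, higher in 4 of 5 mice, arthritic mouse 5 being the exception.

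In healthy mice 1 to 4 the granule-poor columns held S100a8 at 10189, 6650, 16662 and 16890 per 1000000 non-hemoglobin signal. Cxcr2 stood there at 136, 91.7, 474 and 193, Mmp8 at 191, 275, 281 and 187, Il1r2 at 81.8, 91.7, 207 and 87.6, and Csf3r at 90.9, 0, 178 and 64.3. The value of 0 comes from the 2 columns of healthy mouse 2. Healthy mouse 3 was the highest of the 4 for Cxcr2, Il1r2, Mmp8 and Csf3r.

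Monocyte transcripts led the genes that were higher in the granule-poor columns. Of a list of 10 monocyte and macrophage genes, 9 were higher in the granule-poor than in the granule-rich columns of 5 of 5 arthritic mice, and the median of their log2 differences was 2.57. Over all 9822 genes at a level of at least 10 the median was 0.51, with 47.4% higher and 5.5% lower in 5 of 5 mice. Ms4a6c, a membrane protein of monocytes, was 890 ± 399 in granule-poor and 69.6 ± 30.1 in granule-rich columns (SD, n = 5), and 910 in the dendritic class. By mouse (arthritic 1, 3, 4, 5 and 6) its level in granule-poor columns was 958, 1150, 668, 332 and 1340. Ccr2, the receptor that brings inflammatory monocytes into tissue, was 837 ± 382 and 71.9 ± 31.8, and 812 in the dendritic class. Both were lowest in arthritic mouse 5 and highest in arthritic mouse 6.

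Ctss, a cathepsin of antigen-presenting cells, was 1588 ± 616 in granule-poor and 188 ± 53.5 in granule-rich columns, and 2197 in the dendritic class. Csf1r, the receptor for the growth factor of monocytes and macrophages, was 109 ± 46.1 and 12.1 ± 5.11, and F13a1, a coagulation factor subunit made by monocytes, 714 ± 389 and 67.1 ± 40.7. Adgre1, which encodes F4/80, was the list member that did not move the same way in every mouse (higher in 4 of 5). In healthy mice 1 to 4 the level of Ms4a6c in granule-poor columns was 682, 917, 459 and 438 and that of Ccr2 863, 596, 459 and 374, so both were also present there.

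**Figure D2:**
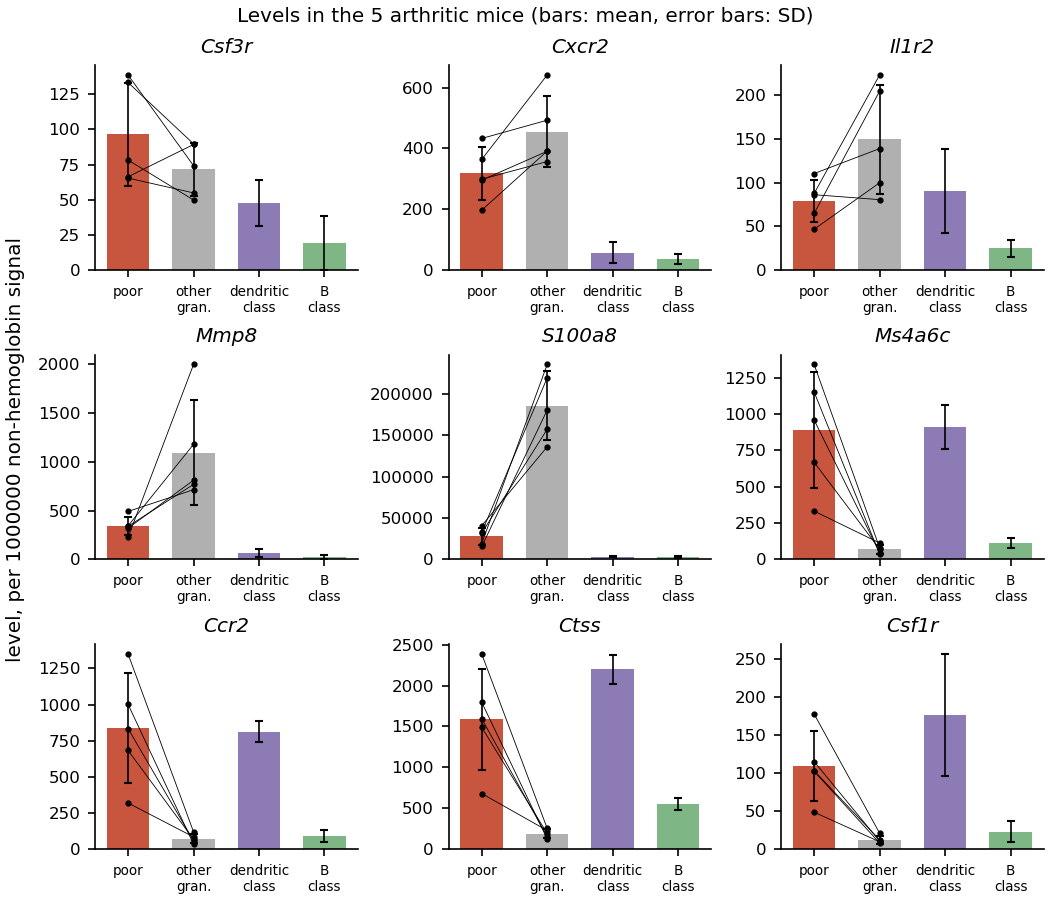
Levels per 1000000 non-hemoglobin signal in granule-poor, granule-rich, dendritic class and B class columns of the 5 arthritic mice (bars, means; error bars, SD; points joined by lines, mice). S100a8 falls from 185525 to 28013 between granule-rich and granule-poor columns, while Ms4a6c is at 69.6 and 890.

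The 12 genes with the largest higher level in granule-poor columns, by the rule stated under processing, were Ms4a6c, Ccr2, Tifab, S100a4, Ms4a4c, Ctss, Ccl2, Clec4a3, Ifi202b, Rassf4, Msr1 and Clec7a. Ccl2, the chemokine ligand of Ccr2, was 228 ± 165 and 11.7 ± 7.13, with a median log2 difference of 3.14. Msr1, a scavenger receptor of macrophages, was 134 ± 54.9 and 9.68 ± 8.76, and Clec7a, the beta-glucan receptor dectin-1, was 794 ± 339 and 120 ± 62.2. On the other side the 12 largest, outside the genes of the rule, were Lcn2, Cd177, AA467197, Inhba, Fcnb, Adpgk, S100a9, Cebpe, Wfdc21, S100a8, Ppp1r42 and Chil3. Lcn2, which binds bacterial siderophores, was 288 ± 126 against 3136 ± 868, and Cd177, a surface protein of neutrophils, 91.9 ± 12.4 against 812 ± 220. Cebpe, the transcription factor of the secondary granule stage, was 37.1 ± 18.9 against 300 ± 147, and Fcnb, a ficolin of granulocyte precursors, 248 ± 143 against 1698 ± 929.

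Other gene lists were compared in the same way. Over all genes 47.4% were higher and 5.5% lower in 5 of 5 mice, with a median of 0.51. Of the 14 members of the secondary granule list left after removing the rule genes, 13 were lower in 5 of 5 mice and 0 higher, with a median log2 difference of -1.53. Lyz2, lysozyme, did not differ in 1 direction (14202 ± 4212 and 14835 ± 1911). Of the 11 measured members of the list of tertiary granules and migration 8 were lower and 2 higher in 5 of 5, with a median of -1.06, and Mmp9, gelatinase B, was 100.2 ± 33.0 against 316 ± 99.2. The NADPH oxidase list had 5 of 8 lower and 1 higher. Of the primary granule list 1 of 9 was higher in 5 of 5 and 0 lower, a smaller part higher than of all genes. Its median was 0.68, against 0.51 over all genes. Mpo, myeloperoxidase, was 657 ± 468 against 255 ± 71.5 and Elane, neutrophil elastase, 684.7 ± 418 against 354 ± 171, each higher in 4 of 5 mice.

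Cytosolic ribosomal proteins were higher in granule-poor columns for 26 of 26 list members in 5 of 5 mice, with a median log2 difference of 1.04. Cytokine receptors were higher for 14 of 18, survival and apoptosis genes for 13 of 18, nuclear oxidative phosphorylation genes for 22 of 30 and type I interferon response genes for 22 of 30, against 47.4% of all genes. The medians of these lists were 0.92, 0.96, 0.58 and 0.77, against 0.51 over all genes. That of the oxidative phosphorylation list thus lay near the general median. Dendritic cell genes were higher for 7 of 7 measured, with a median of 1.62. Cd74, the invariant chain of MHC class II, was 1958 ± 628 in granule-poor and 600 ± 243 in granule-rich columns but 7749 in the dendritic class, and H2-Aa 630 ± 202, 186 ± 59.5 and 2822. Xcr1 and Clec9a, which mark cross-presenting dendritic cells, were at 0 in the granule-poor columns of all 4 healthy mice and at no more than 4.35 in the arthritic mice. B cell genes were above the level of the B class in 5 of 5 mice for 0 of 9 measured, against 2546 of all 9822 genes. T cell genes were above that of the T class for 0 of 8, against 2795 of all 9822.

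**Figure D3:**
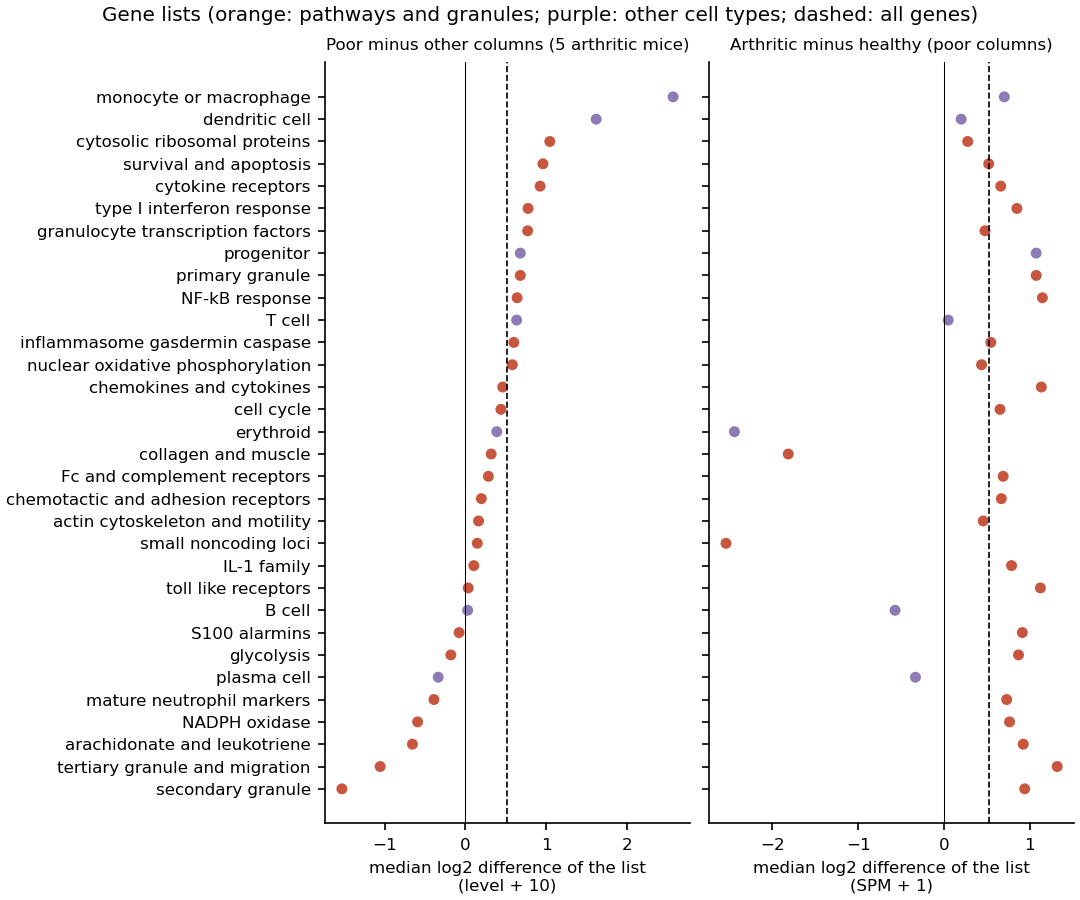
Median log2 difference of each gene list with at least 5 measured members, between granule-poor and granule-rich columns of the 5 arthritic mice (left) and between arthritic and healthy mice within granule-poor columns (right), with the median of all genes dashed and 0 as a thin line. The monocyte list leads on the left at 2.57, and the erythroid list and the small noncoding loci lie lowest on the right at -2.44 and -2.54.

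Single columns were then set against the 95th percentile of the B class columns, a class that should lack neutrophil and monocyte programmes. The summed level of the 10 monocyte genes exceeded it in 578 of 858 granule-poor columns (67.4%), against 5.16% of granule-rich columns. Csf3r, Cxcr2, Il1r2 and Mmp8 together exceeded it in 547 (63.8%), against 86.0% of granule-rich columns, and 350 columns exceeded both. The 4 primary granule proteases and peroxidase transcripts Mpo, Elane, Prtn3 and Ctsg exceeded it in 434 (50.6%), against 58.3% of granule-rich columns. Erythroid genes other than hemoglobin exceeded it in 397 (46.3%), against 34.7% of granule-rich columns. Cell cycle genes exceeded it in 130 (15.2%), against 44 of the 1047 granule-rich columns. The primary granule and erythroid signal was thus not particular to the granule-poor columns. By mouse the monocyte share was 69.2%, 50%, 72.7% and 65% of columns in healthy mice 1 to 4. In arthritic mice 1, 3, 4, 5 and 6 it was 76.1%, 88.5%, 60.6%, 30.7% and 91.4%. Arthritic mouse 5, the lowest for monocyte genes, was the highest arthritic mouse for the erythroid share, at 90.3% of columns.

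S100a8 ordered the columns further. Across the 858 columns its Spearman correlation with the monocyte list was -0.75 and with Retnlg 0.84, and the monocyte list and the erythroid list correlated at -0.65. These are descriptions across columns that share mice, a denominator and in part identical profiles. Below 20000 S100a8 per 1000000 non-hemoglobin signal lay 546 columns, 36 healthy and 510 arthritic, from 20000 to 100000 lay 272 (10 and 262), and at 100000 or more lay 40 (0 and 40). The boundaries were chosen after the values were seen, they cut a range and not cell types, and 31 and 29 columns lay within 10% of them.

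The 546 columns of low S100a8 carried the monocyte genes: the median over columns of the monocyte list was 7798, against 1251 in the middle range and 897 in the upper. Pooled over the columns of all mice, Ccr2 stood at 1175, Ms4a6c at 1213, F13a1 at 917 and Ccl2 at 290 per 1000000 non-hemoglobin signal. The 272 columns of the middle range had a median hemoglobin share of 41.3%, against 1.43% and 1.99% on either side. Their median over columns of the erythroid list without hemoglobin was 6465, against 145 and 123. Car2, a carbonic anhydrase abundant in red cell precursors, stood at 4902, against 1314 in the low and 840 in the upper range. The proliferation marker Mki67 stood at 1977, against 1108 in the low range, 270 in the upper range and 843 in granule-rich columns. Top2a, another gene of the cell cycle list, was not higher than in the low range, at 633 against 639. Of the 272 columns 94 came from arthritic mouse 4 and 105 from arthritic mouse 5, the arthritic mice with the most hemoglobin, so the pooled values of the ranges carry a difference between mice. Within a mouse the median hemoglobin share in the low and the middle range was 0.544% and 0.334% in arthritic mouse 1, 0.509% and 0.26% in mouse 3, 23.1% and 40.02% in mouse 4, 56.4% and 53.6% in mouse 5 and 1.01% and 2.42% in mouse 6. It was thus higher in the middle range in arthritic mice 4 and 6 and lower in the other 3.

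**Figure D4:**
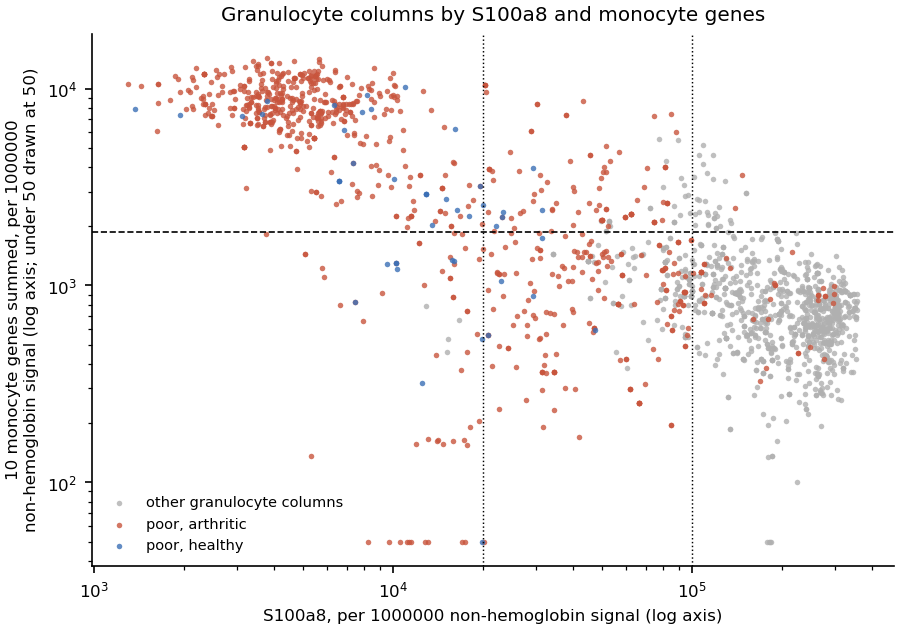
Each granulocyte column by its S100a8 level (horizontal log axis) and the summed level of 10 monocyte genes (vertical log axis), both per 1000000 non-hemoglobin signal, with granule-poor columns in red (arthritic) and blue (healthy) and granule-rich columns in grey. Dotted lines mark 20000 and 100000 S100a8 and the dashed line the 95th percentile of the B class columns; most granule-poor columns lie at low S100a8 and high monocyte genes, and 40 lie among the granule-rich columns at the right.

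The 40 columns of high S100a8 had the highest pooled levels of Csf3r, Cxcr2, Il1r2 and Mmp8 among the 3 ranges, which were set on S100a8 itself. They came from arthritic mice 1, 3, 4, 5 and 6 as 13, 3, 13, 7 and 4 columns. The 40 columns held 29 distinct profiles, counted over all mice, so they are not 40 separate observations and the mice may share some of them. The share of rule genes in these columns had a median of 1.465%, below the boundary of 2% and above the 0.114% of all members. Cxcr2 stood at 2078 against 396 in granule-rich columns, Mmp8 at 3007 against 843, Il1r2 at 437 against 118 and Csf3r at 293 against 64.8. Retnlg stood at 19222 against 3319. By mouse it was 22846, 21917, 17617, 13522 and 16201 in these columns and 2007, 2579, 5673, 5161 and 6396 in the granule-rich columns of the same mice.

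Further genes were higher in the 40 columns than in the granule-rich columns of 5 of 5 mice: Fpr1, the formyl peptide receptor (pooled 704 against 125), Il1b, the inflammatory cytokine (1197 against 157), and Slfn4, an interferon-inducible schlafen gene (1505 against 453). Il1b was pooled at 707 and 980 in the low and middle ranges, so its level above the granule-rich columns was not particular to the 40. In the 40 columns Fcnb was lower than in the granule-rich columns of 5 of 5 mice, at 6.43 against 2146, and Elane stood at 77.2 against 448. Fpr1, Slfn4 and the genes of this range were chosen after their values were seen, and the columns were chosen by S100a8. Arthritic mice 1 and 4 gave 13 of these columns each, so the pooled levels lean on them.

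The comparison the study was designed for, arthritic against healthy, was made within the granule-poor columns. For it the signal of each mouse was summed, scaled by TMM factors and given per 1000000 (SPM), and limma was run on log2(SPM + 1) over 8816 genes. Healthy mice 1, 3 and 4 and the 5 arthritic mice had at least 3 member columns, and healthy mouse 2 with 2 was left out. Limma called 108 genes at an adjusted p under 0.05 (1.23%), 101 higher (1.15%) and 7 lower (0.0794%) in arthritic mice, while 2311 (26.2%) had an unadjusted p under 0.05. Over all genes tested the log2 differences had a median of 0.53, so a difference near that value is not particular to a gene. The difference was positive for 6718 of the 8816 genes, and the counts of positive members in each list stand against that share. All 5 arthritic mice lay above every healthy mouse for 14% of the genes and below for 2.28%. The filter on low genes did not treat both directions alike. A gene could pass it through 3 arthritic mice alone, while a gene present only in healthy mice had to pass in all 3. The counts and shares of higher and lower genes carry this imbalance, and its size was not tested. With a filter of 30 SPM limma called 8 higher and 3 lower genes, and with no filter 10 and 5.

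The depth of the healthy mice limits these calls. Their summed signal was 589019 over 3 mice, and of the 108 called genes 47 had no signal in any of them and 62 had at most 3 over all. When every mouse was thinned to the smallest total of 141610 signal, hemoglobin included, the median of all genes was 0.18 and limma called 1 gene. With hemoglobin genes left out and the rest thinned to the smallest total of 67520, the median was 0.16 and limma called 3 genes, the lower Mir6240, Mir6236 and Gm42418, and 0 higher, against 870 at an unadjusted p under 0.05. No gene given as higher in arthritic mice was called at that equal depth: Lrg1 was at 1.70 ± 0.44 (limma adjusted p = 0.477), Cebpd at 1.94 ± 0.59 (0.494), Ncf4 at 1.01 ± 0.37 (0.593) and Retnlg at 1.44 ± 0.30 (0.251). Leaving out 1 mouse at a time gave 0 to 1361 calls: 0 without arthritic mouse 1, 3 or 6, 6 and 5 without arthritic mouse 4 or 5, and 1361, 197 and 735 without healthy mouse 1, 3 or 4. Scaling by the total alone gave 0 calls, and median-of-ratios scaling 7, of which 42.9% were higher against 93.5% of the 108.

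Genes of neutrophil granules and of oxidant production were among those that rose. Lrg1, a secreted glycoprotein stored in granules, stood at 17.7, 25.7 and 38.2 SPM in healthy mice 1, 3 and 4 and at 187, 119, 151, 109.9 and 153 SPM in arthritic mice 1, 3, 4, 5 and 6. Its log2 difference was 2.40 ± 0.29 (SE; limma adjusted p = 0.0190). The groups did not overlap, and 14% of all genes tested had every arthritic mouse above every healthy mouse. Retnlg stood at 349, 377 and 446 SPM in healthy and 1637, 830.3, 1595, 2298 and 775 SPM in arthritic mice (1.75 ± 0.34, limma adjusted p = 0.0463). Without the 40 columns of high S100a8, all of them arthritic, Retnlg was at 0.84 ± 0.49 (limma adjusted p = 0.282) and was not called, and Lrg1 was at 1.93 ± 0.32 (limma adjusted p = 0.0422).

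Ncf4, a cytosolic subunit of the NADPH oxidase, rose from 56.9 ± 20.6 to 158 ± 14.4 SPM (SD, n = 3 and 5; log2 difference 1.50 ± 0.24, limma adjusted p = 0.0354). Rac1, a GTPase of the same complex, rose from 102 ± 14.9 to 199 ± 18.3 SPM (0.96 ± 0.19, limma adjusted p = 0.0463). Of the 8 tested members of that list, 8 had a positive difference, as had 6718 of all 8816 genes, and 2 were called, against 1.23% of all genes. Chil3, a chitinase-like secretory protein, rose from 162 ± 13.1 to 314 ± 47.4 SPM and Anxa1, annexin A1, from 220 ± 61.3 to 429.9 ± 43.8 SPM. Of 13 tested members of the secondary granule list outside the rule genes, 12 were positive, with a median of 0.94, and 3 were called: Lrg1, Chil3 and Anxa1. The rule caps Ngp, Camp and Ltf in both groups, and they were not counted.

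Cebpd, a C/EBP transcription factor induced by inflammatory cytokines, stood at 5.92, 17.1 and 25.5 SPM in healthy and at 90.8, 94.1, 87.7, 85.0 and 106.0 SPM in arthritic mice, resting on 9 units of healthy signal. Its log2 difference was 2.65 ± 0.40 (limma adjusted p = 0.0354). Ifitm6, an interferon-induced membrane protein of myeloid cells, rose from 215 ± 16.3 to 506 ± 63.3 SPM (1.22 ± 0.17, limma adjusted p = 0.0308) on 114 units of healthy signal. Oas1a, an antiviral oligoadenylate synthetase, rose from 13.02 ± 4.59 to 53.0 ± 17.2 SPM (1.93 ± 0.39, limma adjusted p = 0.0482). It was the 1 called of 30 tested type I interferon genes, of which 25 were positive with a median of 0.85. Aldoa, a glycolytic aldolase, rose by 1.33 ± 0.27 on the log2 scale (limma adjusted p = 0.0482) and was the 1 called of 16 tested glycolysis genes, with a median of 0.87.

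The other named genes that rose were Atp6v0e, a subunit of the vacuolar proton pump, at 1.09 ± 0.17, Prdx5, a peroxiredoxin, at 1.11 ± 0.20, G6pdx, which feeds NADPH production, at 1.84 ± 0.34, Rhob, a small GTPase, at 1.44 ± 0.24 and Abracl, an actin-binding protein, at 1.34 ± 0.23. Pdcd10, Prr13, Ipmk, Lbh, Med10 and Rpp21 were also named by the rule, with log2 differences of 1.28, 1.33, 2.33, 1.66, 1.95 and 1.63. The limma adjusted p of these 11 lay between 0.0354 and 0.0441. Each was above every healthy mouse in 5 of 5 arthritic mice, as were 14% of all genes tested. Having been picked for a small p in these same mice, they gain no further support from that. Ipmk, Med10, G6pdx and Oas1a rested on 6, 5, 7 and 7 units of healthy signal.

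**Figure D5:**
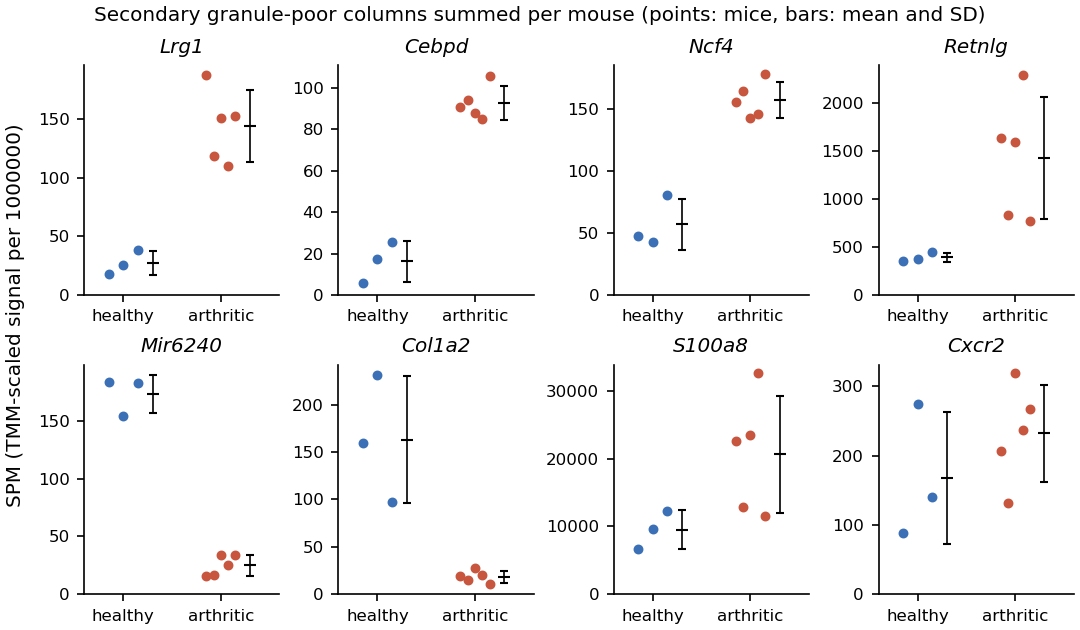
SPM of 8 genes in the granule-poor columns of 3 healthy and 5 arthritic mice (points, mice; bars, mean and SD; linear axes from 0). Lrg1, Cebpd, Ncf4 and Retnlg lie higher in every arthritic mouse and Mir6240 and Col1a2 lower, while S100a8 and Cxcr2 overlap between the groups.

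The 7 genes that fell were of another kind. Mir6240 stood at 183, 154 and 182 SPM in healthy and 15.4, 16.8, 33.8, 24.8 and 33.5 SPM in arthritic mice, with a log2 difference of -2.82 ± 0.33 (limma adjusted p = 0.0190). Mir6236 (-2.96 ± 0.46), Gm42418 (-2.14 ± 0.43), the 5.8S ribosomal RNA locus n-R5-8s1 (-1.54 ± 0.28) and the small nucleolar RNA Snord82 (-1.53 ± 0.29) fell as well, with limma adjusted p from 0.0354 to 0.0475. Of 7 tested small noncoding loci 7 were negative and 3 called, beside 2098 negative and 7 called lower of all 8816 genes. The list was chosen with earlier results of these data known, so the count gives no further support. The assay primes on polyA tails, so signal at these loci is not a measure of mature small RNAs. In granule-poor columns Gm42418 alone took 107177, 74941 and 102901 per 1000000 non-hemoglobin signal in healthy mice 1, 3 and 4 and 14953 to 26531 in arthritic mice. Col1a2, a collagen chain of connective tissue, stood at 160, 231.5 and 97.6 SPM in healthy and 10.9 to 27.6 SPM in arthritic mice (-3.04 ± 0.38, limma adjusted p = 0.0190). Igkv3-4, an immunoglobulin light chain segment, fell from 84.1 ± 47.1 to 3.85 ± 0.84 SPM (-4.01 ± 0.51, limma adjusted p = 0.0190), and reads of such segments can be shared between near-identical copies. In columns of under 5% hemoglobin, which leave 1 healthy mouse, the differences of Mir6240, Mir6236, n-R5-8s1, Gm42418 and Col1a2 turned positive.

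None of the 5 markers given with the rule was called. S100a8 stood at 6631, 9646 and 12269 SPM in healthy and at 22616, 12921, 23412, 32565 and 11531 SPM in arthritic mice (1.05 ± 0.44, limma adjusted p = 0.168). The lowest arthritic value lies below the highest healthy one. Mmp8 was at 0.79 ± 0.24 (limma adjusted p = 0.106), Cxcr2 at 0.56 ± 0.37 (0.338), Il1r2 at -0.42 ± 0.37 (0.477) and Csf3r at 0.01 ± 0.37 (0.988), the last turning to -0.21 under median-of-ratios scaling. Of 19 tested mature neutrophil genes 17 were positive, beside 6718 of 8816 over all genes, with a median of 0.73, and Retnlg was the 1 called. Of 10 monocyte genes 9 were positive with a median of 0.71 and 0 called: Ly6c2, an antigen of inflammatory monocytes, at 1.25 ± 0.29 (limma adjusted p = 0.0667), Ms4a6c at 0.79 ± 0.38, Ccr2 at 0.67 ± 0.40 and Ctss at 0.45 ± 0.35. The summed level of the monocyte list was 2465 to 4690 per 1000000 non-hemoglobin signal in the 4 healthy and 2306 to 7196 in the 5 arthritic mice, with 1, 2, 1 and 0 of its genes at 0 in healthy mice 1 to 4 and none at 0 in the arthritic mice. Tertiary granule genes were positive for 9 of 10 with a median of 1.32, primary granule genes for 8 of 9 with 1.08, the NF-kB list for 15 of 19 with 1.15 and oxidative phosphorylation genes for 30 of 30 with 0.44. Of these only Cebpd, in the NF-kB list, was called. No gene was called among S100 alarmins (8 of 8 positive, median 0.92), Fc and complement receptors (12 of 12, 0.69), Toll-like receptors (9 of 9, 1.13), chemokines and cytokines (8 of 11, 1.14) or the IL-1 family (9 of 10, 0.79). The same held for cytokine receptors (13 of 18, 0.66), cell cycle genes (18 of 20, 0.66) and ribosomal proteins (22 of 25, 0.28). In bulk sums of this kind fewer cells of a type and less RNA per cell cannot be told apart.

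Erythroid transcripts differed widely among the mice of both groups. Hemoglobin took 22.3%, 13.4%, 53.7% and 43.2% of the members' signal in healthy mice 1 to 4 and 1.14%, 0.628%, 37.1%, 52.4% and 7.99% in arthritic mice 1, 3, 4, 5 and 6. The 11 erythroid genes tested were all negative with a median of -2.44 and 0 called, and their summed level ran from 154781 to 1150711 in healthy and from 6461 to 1076686 per 1000000 non-hemoglobin signal in arthritic mice. None of them was at 0 in any mouse. With hemoglobin share as a covariate limma called 0 genes, against 1339 to 2048 at an unadjusted p under 0.05 over the alternatives with 0 calls. Over the mice with at least 3 columns the hemoglobin share was 39.8% ± 16.0 and 19.8% ± 23.5 (SD, 3 and 5 mice; exact permutation p = 0.196, two-sided). Median genes per column were 2737 ± 439 and 3223 ± 451 (exact permutation p = 0.179) and the share of distinct columns 96.7% ± 5.77 and 88.3% ± 5.15 (exact permutation p = 0.0893). Mitochondrial share (6.33% ± 0.61 and 5.03% ± 1.75, exact permutation p = 0.25) and median signal per column (12869 ± 2519 and 11360 ± 3060, exact permutation p = 0.464) complete the 5 measures. After Benjamini-Hochberg adjustment over them none was under 0.3125, where 56 splits allow no p below 0.0179.

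Lists of other cell types were measured in the members as well. The summed B cell list in the members was 413 to 1303 per 1000000 non-hemoglobin signal in healthy and 553 to 825 in arthritic mice, and Cd79a, a part of the B cell receptor, was at 0 in healthy mouse 2 and at 18.5 to 63.6 elsewhere. The T cell list was 275 to 696 and 281 to 475, and the NK list 155 to 459 and 146 to 236. All 4 tested NK genes had a negative difference (median -0.55). Ncr1, a receptor that defines NK cells, was at 0 in the 4 healthy and at 3.5 to 7.6 in the 5 arthritic mice. Members held 21805 to 171164 non-hemoglobin signal in healthy and 920516 to 1960776 in arthritic mice. A level as low as that of Ncr1 can therefore read as 0 in a healthy mouse. The dendritic cell list was 1926 to 3880 and 2024 to 4936, the plasma cell list 444 to 2705 and 410.2 to 1268, and the eosinophil list 245 to 1985 and 198 to 1195. The progenitor list was 489 to 1227 and 440.1 to 4023, the basophil and mast cell list 87.6 to 275 and 35.8 to 169, and the platelet list 0 to 72.7 and 36.2 to 76.0. The part of these cell types in the results was not tested. The collagen and muscle list was 663 to 1200 in healthy and 163 to 375 in arthritic mice, with 7 of 9 tested genes negative and Col1a2 called. Of all 8816 genes 2098 were negative. On GENCODE M21 Cebpd lies on chromosome 16 from 15887286 to 15891031, Ncf4 on chromosome 15 from 78244801 to 78262580 and Ifitm6 on chromosome 7 from 141015699 to 141017924. All 3 are protein-coding.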

How the data were processed

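Seq-Well profiles of the blood of 9 mice were used as 1 deposited table of signal. Per the labels' protocols the authors followed the Drop-seq core computational protocol on GRCm38.p5; which aligner, cell filter or class caller was run is not given in the sources used here. Deposited values are whole numbers that look like sums over similar cells, since many columns are identical, so they were treated as signal and not as single-cell counts. The 8423 columns of a joint table could be tied to none of these samples and were left out.

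Levels are signal per 1000000 non-hemoglobin signal (10 hemoglobin genes left out). For differences between kinds of column log2(level + 10) was taken within each mouse over genes at a level of 10 or more. For arthritic against healthy, columns were summed per mouse (at least 3 columns), scaled by TMM (trims of 30% and 5%) and expressed per 1000000 (SPM). These values were tested with limma 3.58.1 (R 4.3.3, trend, no weights) on log2(SPM + 1). The added 1 shrinks the differences of low genes, but depth also differed between the groups, so the error of a low gene can run either way. A gene was kept if at least 3 mice, the size of the smaller group, reached 10 SPM, and p-values were Benjamini-Hochberg adjusted over all of them. The fit was tested on simulated data. For column measures the exact permutation test was two-sided. Python 3.11.15, numpy 2.4.6 and pandas 2.3.3 were used.

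The members, the 25 gene lists and 11 lists of other cell types were chosen with earlier results of these data known. The rule for named genes takes up to 15 per direction with the smallest p among called genes with a mean of 20 SPM or more, without unnamed gene models, the given markers and rule genes, for granule-poor against granule-rich columns the 12 per direction with the largest median log2 difference among genes at 50 or more and of 1 sign in every mouse, and of each list up to 5 by level and 3 by p. The text gives part of these. Coordinates are GENCODE M21 (GRCm38).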

Additional observations from a re-analysis of the deposited data

Results flagged for a closer look

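Of 46 results checked for a value far from the rest of its group, 4 held one; chance alone flags about 1 group in 20. Granule-poor columns were 40% of the granulocyte columns of healthy mouse 2, against 100% in the other 3 healthy mice, and that mouse had 5 granulocyte columns. Atp6v0e stood at 283 SPM in arthritic mouse 4, against 332 to 343 SPM in the other 4 arthritic mice, and still above every healthy mouse. Prr13 stood at 303 SPM in arthritic mouse 3, against 331 to 340 SPM in the others. Ipmk stood at 81.6 SPM in arthritic mouse 6, against 40.9 to 50.3 SPM in the others.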

How the results depend on the processing

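The count of 108 genes called by limma between arthritic and healthy mice was recomputed under 34 alternatives. A share limit of 0.005 gave 556 calls, 0.05 gave 170 and hemoglobin in the denominator 30. Scaling by the total alone gave 0 and median-of-ratios scaling 7 (3 higher and 4 lower), and the median of all genes was 0.76 and 0.30 there against 0.53. A pseudocount of 10 gave 214, no filter 15 and a filter of 30 SPM 11. Columns under 5% hemoglobin gave 3173, but with 1 healthy mouse of 4 columns, whose spread is assumed to be that of the arthritic mice, and this is no like count. Hemoglobin and mitochondrial genes left out gave 431, at least 1 column per mouse 48 and array weights 0. Without columns identical to one of another mouse the count was 108 (103 higher and 5 lower), which leaves any partly shared values in place. Alternatives added after the data were seen gave 0 with hemoglobin or mitochondrial share as a covariate, 60 without columns of 100000 S100a8 or more, 1 when thinned to the smallest total and 3 when hemoglobin genes were left out and the rest thinned. Leaving out 1 mouse gave 0 to 1361. Where the count was 0, 1339 to 2048 genes had an unadjusted p under 0.05. The cause of these moves was not tested.

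With the replicate block over the mice numbered alike in both groups there were 2 calls (0 higher and 2 lower), and the same mice with no replicate block gave 0. Deviations of same-numbered mice correlated at 0.128, -0.028 and 0.143 for mice 1, 3 and 4. Healthy mouse 1 correlated best with arthritic mouse 3 (0.155). With so few mice these values cannot settle whether the numbers pair the samples.

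Some log2 differences changed sign. In columns under 5% hemoglobin they were 5.01 for Mir6240, 4.65 for Col1a2, 1.35 for Mir6236, 1.39 for n-R5-8s1, 0.85 for Gm42418 and 0.13 for Il1r2, and the difference in median signal per column was 627.8 and in median genes -99.8. Csf3r was at -0.12 with a share limit of 0.01, -0.51 with 0.005, -0.21 with median-of-ratios scaling, -0.017 with distinct columns, -0.0077 without hemoglobin and mitochondrial genes, -0.093 with and without the block, -0.24 without high S100a8, -0.25 thinned, -0.33 thinned without hemoglobin genes, and -0.23 to 0.33 leaving out 1 mouse. Cxcr2 was at -0.015, -0.41 and -0.012 with limits of 0.01 and 0.005 and without high S100a8. Il1r2 was at 0.18 with a limit of 0.05, 0.093 without columns shared with another mouse and 0.0072 with the hemoglobin covariate. With a limit of 0.005 Mmp8 was at -0.00089, S100a8 at -0.032 and S100a9 at -0.18.

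Whether the group difference differed between granule-poor and granule-rich columns could not be fitted, since no healthy mouse had 3 columns of each kind.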
